A study of Sus scrofa with 22 samples.

Results

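Liver X receptor (LXR) targets and sterol efflux genes were described as 10 genes picked by symbol: NR1H2, NR1H3, ABCA1, ABCG1, ABCG4, APOE, APOD, PLTP, MYLIP and SMPDL3A. Of these 10, 9 were matched to 1 of the 31907 pig gene identifiers in the count tables, and all 9 passed the filter on low counts. PLTP, which moves phospholipids between lipoproteins, had no identifier in the table that pairs identifiers with symbols and was not analysed here. Cerebellar RNA had been sequenced and counted per gene in 11 piglets with bile duct ligation (BDL), an operation that stops bile from leaving the liver, and in 11 piglets with sham surgery (SHAM). Surgery was done on day 8 of life and the animals were followed for 3 weeks. The BDL group held 7 females and 4 males, and the SHAM group held 5 females and 6 males.

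LXRs are nuclear receptors that sense oxysterols, the oxidised forms of cholesterol. They sit on DNA paired with a retinoid X receptor and, once bound by a sterol, switch on genes that move cholesterol out of cells. The brain makes its own cholesterol because lipoproteins do not cross the blood-brain barrier. Astrocytes load it onto particles that carry apolipoprotein E, and neurons turn the excess into 24-hydroxycholesterol, which is both an exit route and an LXR ligand. In cholestasis bile acids and sterols build up in plasma, and the comparison of BDL with SHAM asks whether the cerebellar genes of this circuit differ in piglets whose bile duct was tied.

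Libraries held between 14811464 and 20046909 gene counts, and values below are CPM, read counts scaled to library size and composition. Each library held transcripts that mark the cerebellum. GABRA6, a receptor subunit of granule neurons, ran from 319 to 397 CPM in BDL and from 325 to 423 in SHAM, and PCP2, a Purkinje cell gene, from 279 to 453 in BDL and from 301 to 418 in SHAM. BDL replicate 2 stood apart from the other 21 libraries. Over all 22 animals it had the lowest marker scores of astrocytes, oligodendrocytes, oligodendrocyte precursors and Purkinje cells, and the highest of meningeal and blood cells, where a score is the mean log2 CPM of a marker list. Its lead was small for meningeal cells (5.55 against 5.41 in SHAM replicate 4) and blood cells (2.46 against 2.34 in BDL replicate 10). Values without BDL replicate 2 are given beside the results it moves. For the correlations, leaving it out was a choice made after seeing the data. In bulk tissue, fewer cells of a type and less RNA per cell cannot be told apart.

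No member differed between BDL and SHAM beyond the spread between animals. Of the 9 tested, 0 passed edgeR's quasi-likelihood test at a Benjamini-Hochberg adjusted p under 0.05, against 0 of 14994 genes (0%). At an unadjusted p under 0.05 there were 0 members and 744 genes. DESeq2 and limma-voom also called 0 members. On the BDL side 4 members were higher and 5 lower, with a median log2 fold change of -0.01, where 50.3% of all genes tested were higher with a median of 0.0006. BDL and SHAM animals overlapped for each of the 9.

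**Figure D1:**
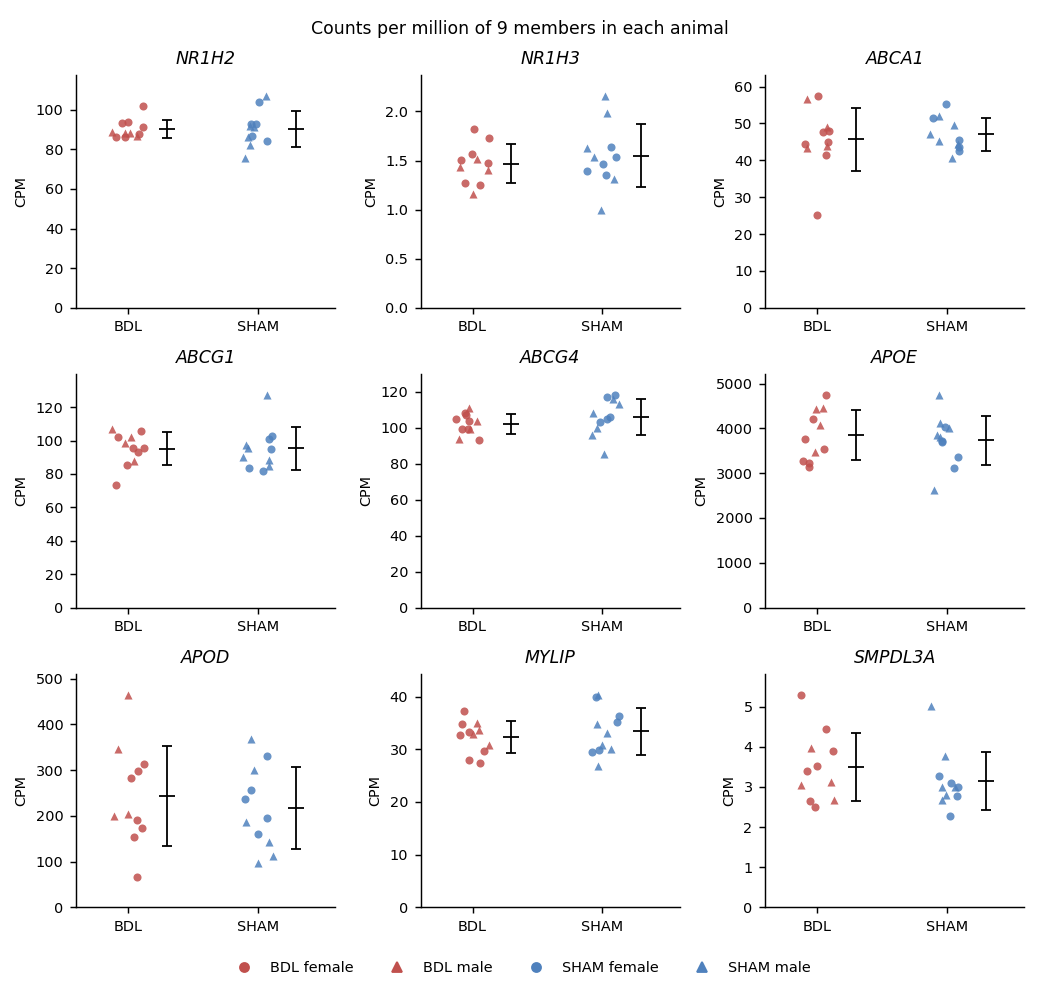
CPM of 9 members in each animal, with BDL on the left and SHAM on the right of each panel. Points are animals (circles female, triangles male), bars are mean ± SD of 11 animals, and every axis starts at 0. The points of both groups overlap in each panel, and APOD has the widest scatter, from 67.0 to 464 CPM in BDL and from 96.7 to 368 CPM in SHAM.

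The receptor genes did not differ beyond the spread between animals. NR1H2 encodes LXR-beta, the LXR form found across the brain (chromosome 6, 55238536 to 55245457 on Sscrofa11.1). Its lowest, median and highest values were 86.2, 88.4 and 102 CPM in BDL animals, against 75.5, 91.1 and 107 CPM in SHAM animals. All 11 BDL animals lay inside the SHAM range, with a log2 fold change of -0.01 ± 0.05 (SE; 95% confidence interval -0.12 to 0.09, adjusted p = 0.975). NR1H3 encodes LXR-alpha, best known from liver and macrophages (chromosome 2, 15315283 to 15336785). It gave 15 to 39 counts per library. Its lowest, median and highest values were 1.16, 1.48 and 1.82 CPM in BDL animals, against 0.999, 1.54 and 2.16 CPM in SHAM animals. The highest and lowest animals were both SHAM, and 8 of 11 BDL animals were below the SHAM mean. The log2 fold change was -0.08 ± 0.14 (-0.37 to 0.21, adjusted p = 0.940). The spread of NR1H3 over all animals, a coefficient of variation of 17.4%, was no larger than the 19.8% that counting reads gives at this depth. NR1H3 overlaps MADD and ACP2 in the RefSeq gene table, and without a stated strand setting reads of overlapping genes cannot be told apart.

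The partners and cofactors of the receptors held 10 tested genes of 11 listed, with 4 on the higher and 6 on the lower side and 0 called. RXRB, which encodes the beta form of the retinoid X receptor that LXRs pair with, was at 74.2 ± 5.2 CPM in BDL and 68.2 ± 5.2 CPM in SHAM (mean ± SD, n = 11 each; log2 fold change 0.12 ± 0.05, unadjusted p = 0.0195, adjusted p = 0.881). RXRA, the alpha form, was at 30.2 ± 2.9 CPM in BDL and 27.4 ± 3.2 CPM in SHAM (0.15 ± 0.07, unadjusted p = 0.0396, adjusted p = 0.881). RXRG, the gamma form, was at 3.23 ± 2.28 CPM in BDL and 2.52 ± 1.45 CPM in SHAM (0.35 ± 0.39). The gene of the coactivator NCOA3 was on the lower side, at 60.7 ± 6.3 CPM in BDL and 68.8 ± 8.5 CPM in SHAM (-0.17 ± 0.07, unadjusted p = 0.0169, adjusted p = 0.881). NCOR1, the gene of a corepressor that holds target genes down when no ligand is bound, had a log2 fold change of 0.04 ± 0.06. Thus 3 of these 10 genes had an unadjusted p under 0.05, a larger share than the 744 of all 14994 genes. This difference in share was not tested, and none of the 3 passed after adjustment.

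Enzymes that make or remove the sterol ligands did not pass either. Of 6 tested, 3 were higher and 3 lower, and 0 were called. CYP46A1, the neuronal enzyme that makes 24-hydroxycholesterol, had a log2 fold change of 0.04 ± 0.07, and CYP27A1, which makes 27-hydroxycholesterol, one of 0.02 ± 0.12. CYP7B1, which further hydroxylates oxysterols, was at 4.13 ± 1.53 CPM in BDL and 4.92 ± 1.04 CPM in SHAM (-0.25 ± 0.19). SULT2B1, a sterol sulfotransferase gene, was at -0.30 ± 0.26. CH25H, which makes 25-hydroxycholesterol, had 5 counts over all BDL libraries and 2 over all SHAM libraries, too few for a fold change.

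The ABC transporters, which hand cholesterol to acceptor particles, did not pass. ABCA1 starts the loading of lipid-poor apolipoproteins and is a standard readout of LXR activity (chromosome 1, 246144277 to 246278492). Its lowest, median and highest values were 25.3, 45.0 and 57.5 CPM in BDL animals, against 40.6, 45.4 and 55.2 CPM in SHAM animals. The lowest value, in BDL replicate 2, lay well under the other 21 animals, which ran from 40.6 to 57.5 CPM. The log2 fold change was -0.03 ± 0.09 (-0.23 to 0.16, adjusted p = 0.963), and 0.02 without BDL replicate 2. ABCG1, which passes cholesterol to particles that already hold lipid (chromosome 13, 205561897 to 205628428), had 73.5, 95.8 and 107 CPM as lowest, median and highest values in BDL animals, against 81.5, 95.1 and 127 CPM in SHAM animals. The highest animal was SHAM replicate 1. The log2 fold change of ABCG1 was 0.01 ± 0.07 (-0.13 to 0.15, adjusted p = 0.985), and 0.05 without SHAM replicate 1. ABCG4, a close relative of ABCG1 found mainly in neurons (chromosome 9, 46364546 to 46380545), had 93.2, 104 and 111 CPM as lowest, median and highest values in BDL animals, against 85.6, 106 and 118 CPM in SHAM animals. For ABCG4, 8 of 11 BDL animals were below the SHAM mean and all 11 lay inside the SHAM range. Its log2 fold change was -0.06 ± 0.05 (-0.17 to 0.04, adjusted p = 0.881).

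The lipid carriers differed in how far animals spread. APOE encodes the main apolipoprotein of brain lipoproteins (chromosome 6, 51373113 to 51375333). Its lowest, median and highest values were 3134, 3760 and 4734 CPM in BDL animals, against 2633, 3815 and 4735 CPM in SHAM animals. The groups shared almost the same upper end, and 6 of 11 BDL animals were above the SHAM mean. APOE had a log2 fold change of 0.07 ± 0.08 (-0.11 to 0.24, adjusted p = 0.928). APOD encodes a lipocalin that binds arachidonic acid and other small lipids and is made by oligodendrocytes and astrocytes (chromosome 13, 132514546 to 132562594). Its lowest, median and highest values were 67.0, 203 and 464 CPM in BDL animals, against 96.7, 195 and 368 CPM in SHAM animals. Both extremes were BDL animals, replicate 2 at the low end and replicate 5 at the high end. The log2 fold change of APOD was 0.18 ± 0.28 (-0.40 to 0.76, adjusted p = 0.933), with 5 of 11 BDL animals above the SHAM mean. It was 0.03 without BDL replicate 5, 0.28 without BDL replicate 2 and 0.29 without SHAM replicate 11.

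MYLIP encodes an LXR-induced ubiquitin ligase that marks lipoprotein receptors for breakdown (chromosome 7, 12117240 to 12137934). Its lowest, median and highest values were 27.4, 33.0 and 37.2 CPM in BDL animals, against 26.9, 33.1 and 40.3 CPM in SHAM animals. All 11 BDL animals lay inside the SHAM range, and the log2 fold change was -0.05 ± 0.07 (-0.19 to 0.10, adjusted p = 0.933). Genes of receptors it acts on did not pass either, with log2 fold changes of -0.03 ± 0.05 for VLDLR and -0.06 ± 0.11 for LRP8. Of 6 lipoprotein receptor genes tested, 1 was higher, 5 were lower and 0 were called. The smallest p among them was that of SORL1, a sorting receptor gene (-0.12 ± 0.08, adjusted p = 0.881). LRP1 was on the same list and had no matched identifier. SMPDL3A encodes a phosphodiesterase related to acid sphingomyelinase and is a target of LXR in human macrophages (chromosome 1, 39848641 to 39869184). It had 40 to 94 counts per library. The lowest, median and highest values of SMPDL3A were 2.49, 3.40 and 5.29 CPM in BDL animals, against 2.28, 3.0 and 5.02 CPM in SHAM animals. One animal in each group, BDL replicate 1 and SHAM replicate 4, stood above 5 CPM. SMPDL3A had a log2 fold change of 0.15 ± 0.15 (-0.15 to 0.46, adjusted p = 0.894).

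Other genes that LXR is known to switch on were on both sides as well. Of 9 tested, 3 were higher, 6 were lower and 0 were called, with a median log2 fold change of -0.05. SREBF1, the gene of the regulator through which LXR drives fatty acid synthesis, was at 103 ± 17.5 CPM in BDL and 95.4 ± 15.5 CPM in SHAM (0.12 ± 0.10, adjusted p = 0.881). Its target SCD, a desaturase gene, was at 0.05 ± 0.11, and LPCAT3, which remodels phospholipids, at -0.06 ± 0.07. LPL, the lipoprotein lipase gene, had the smallest p of the list and a wide interval (-0.52 ± 0.38, adjusted p = 0.881). Among 9 further sterol and lipoprotein genes tested, 5 were higher, 4 lower and 0 called. CLU, the gene of the astrocyte apolipoprotein clusterin, was at 1521 ± 113 CPM in BDL and 1535 ± 197 CPM in SHAM. NPC1, which lets cholesterol out of lysosomes, was at 0.05 ± 0.15, SOAT1, which esterifies cholesterol, at -0.08 ± 0.07, and LIPA, the lysosomal lipase gene, at -0.05 ± 0.04.

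The 95% confidence intervals say how large a change the data still allow. For 6 of the 9 members the interval lay inside a 1.25-fold change in either direction, as it did for 63.6% of all genes tested. The exceptions were APOD, NR1H3 and SMPDL3A. Inside 1.5-fold lay 8 of 9 members and 87.1% of genes, with APOD outside, and inside 2-fold all 9 members and 98.1% of genes. As ratios of BDL to SHAM the intervals ran from 0.855 to 1.12 for ABCA1, from 0.928 to 1.18 for APOE and from 0.757 to 1.70 for APOD.

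**Figure D2:**
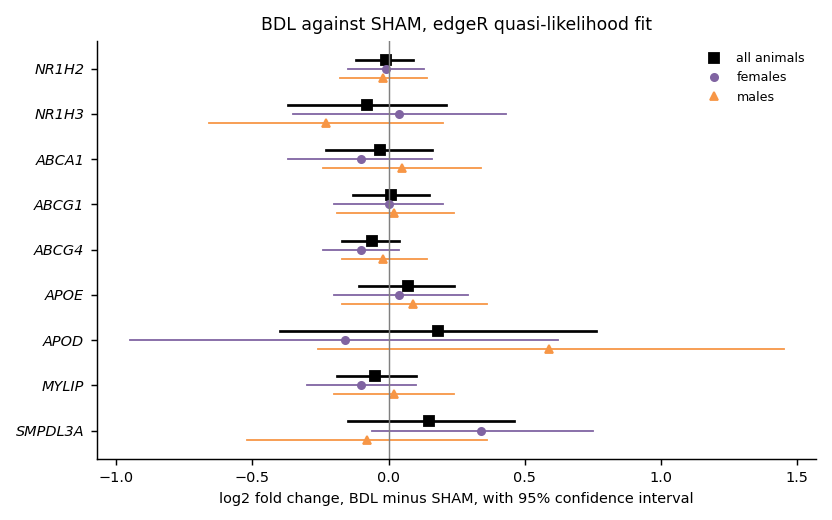
Log2 fold change of BDL over SHAM with its 95% confidence interval for 9 members, in all animals (black squares), females (purple circles) and males (orange triangles). Each interval crosses 0, and those of APOD are the widest, from -0.40 to 0.76 in all animals.

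The members were also compared between the sexes. Female against male, 0 of 9 members passed, where 9 of 14994 genes did (0.0600%). The member with the smallest p was APOE, at 3648 ± 487 CPM in 12 females and 3956 ± 590 CPM in 10 males (log2 fold change -0.13 ± 0.08, adjusted p = 0.889). The log2 fold change of ABCG1 was -0.08 ± 0.07 (adjusted p = 0.921), and no member had an adjusted p under that of APOE.

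The effect of BDL was then taken within each sex, from a fit in which all 22 animals share 1 estimate of the spread. In females 0 members and 0% of genes passed, and in males likewise 0 members and 0% of genes. SMPDL3A was at 3.67 ± 0.98 CPM in 7 BDL females and 2.89 ± 0.38 CPM in 5 SHAM females, and at 3.20 ± 0.54 CPM in 4 BDL males and 3.37 ± 0.89 CPM in 6 SHAM males. Its log2 fold change was 0.34 ± 0.20 in females and -0.08 ± 0.21 in males, and the difference between the sexes, 0.42 ± 0.29, did not pass (adjusted p = 0.917). APOD was at 211 ± 90 CPM in BDL females and 236 ± 65 CPM in SHAM females, and at 303 ± 127 CPM in BDL males and 201 ± 110 CPM in SHAM males. Ordered from high to low the groups were BDL males, SHAM females, BDL females and SHAM males, and the ranges of all 4 overlapped. The difference between the sexes in the effect of BDL on APOD was -0.75 ± 0.56 (-1.92 to 0.41, adjusted p = 0.917). The interaction of treatment and sex called 0 of 9 members and 0% of genes.

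Body weight, printed in the labels without a unit, was 2044 ± 313 in BDL and 2035 ± 273 in SHAM animals. Its association was tested per SD of weight (286) beside sex and treatment, and called 0 of 9 members and 0% of genes. MYLIP and ABCA1 had the smallest p among the members. MYLIP was higher by a log2 change of 0.10 ± 0.03 per SD of weight (unadjusted p = 0.00755, adjusted p = 0.499) and ABCA1 by 0.13 ± 0.04 (unadjusted p = 0.0101, adjusted p = 0.516). Without BDL replicate 2 the slope of ABCA1 was 0.09.

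Animals differed from each other within each group, and some members varied together with the markers of a cell type. Residual log2 CPM, with sex and treatment removed, was correlated over the 22 animals for 36 pairs of members and for 99 pairs of a member and a marker score. Of the 36 pairs of members, 0 passed at a permutation p adjusted over all 135 relations. The closest were NR1H2 and NR1H3 (Pearson's r = 0.55, permutation p = 0.00856, adjusted p = 0.116; Spearman's rho = 0.42, p = 0.0496), and r was 0.10 without the pair of animals farthest from the median. ABCA1 and APOE had an r of -0.06 (permutation p = 0.775). Of the 99 pairs with marker scores 8 passed by Pearson's r, all of them of APOD, ABCA1 or ABCG4.

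**Figure D3:**
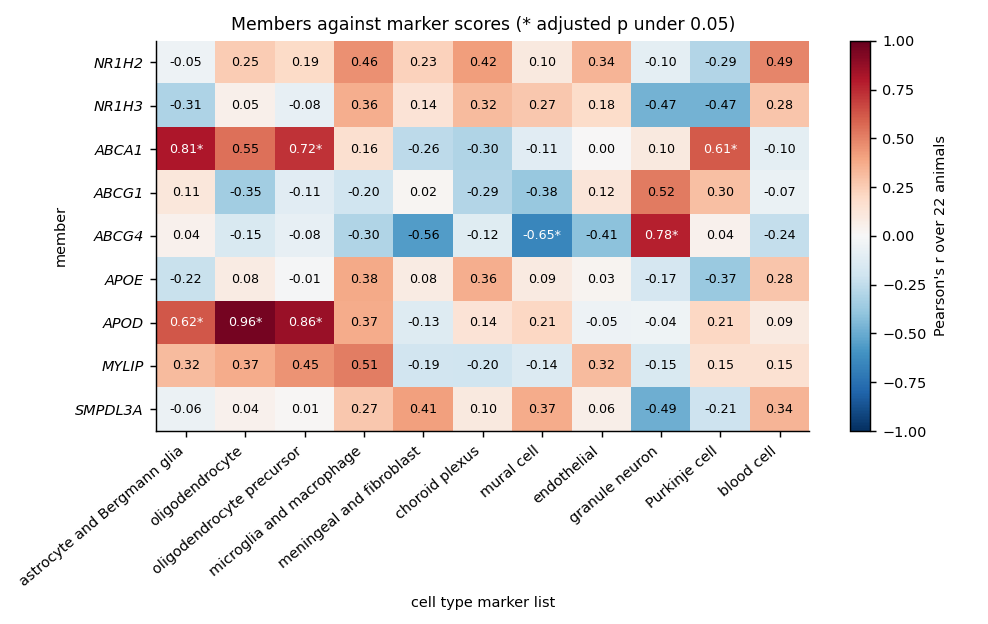
Pearson's r of residual log2 CPM over 22 animals between each of 9 members (down) and the score of each of 11 cell type marker lists (across), from -1 (blue) to 1 (red). A star marks an adjusted permutation p under 0.05. The deepest red is APOD with the oligodendrocyte score, at 0.96, and the row of APOE has no star.

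APOD tracked the marker score of oligodendrocytes, the myelin-forming cells. Pearson's r with the score of 11 oligodendrocyte markers was 0.96 (adjusted p = 0.00045), and rho was 0.95 (adjusted p = 0.00135). Both permutation p were 1e-05, the smallest the permutations can give. The value of r was 0.93 without the pair of animals farthest from the median and 0.94 without BDL replicate 2. It was 0.96 within BDL, 0.97 within SHAM, 0.97 in females and 0.96 in males. APOD also followed the score of oligodendrocyte precursors (r = 0.86, adjusted permutation p = 0.00045). Here rho was 0.80 (adjusted permutation p = 0.00202). Whether this relation is separate from that with the oligodendrocyte score was not tested. From the lowest to the highest animal these markers differed by between 3.34-fold (OPALIN) and 6.17-fold (MBP), against 6.93-fold for APOD. MBP, the myelin basic protein gene, ran from 2600 to 16035 CPM in BDL and from 3318 to 14261 CPM in SHAM. All 11 oligodendrocyte markers were on the higher side in BDL with 0 called. Their score was 7.95 ± 0.62 in BDL and 7.80 ± 0.45 in SHAM (mean ± SD), a difference smaller than the spread between animals. Their summed level was between 5157 and 29066 CPM in BDL animals (median 17228) and between 7380 and 25427 CPM in SHAM animals (median 14920). With the oligodendrocyte score added to the fit, a choice made after seeing the data, the log2 fold change of APOD was -0.04 (adjusted p = 0.933), against 0.18 without it. With the astrocyte score in its place it was 0.34 (adjusted p = 0.916), and with the granule neuron score 0.14 (adjusted p = 0.949). The oligodendrocyte score came from the same libraries, correlated with APOD at 0.96 and was itself higher in BDL. A smaller change of APOD was thus built into that fit, and a cause was not tested.

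Among the marker scores ABCA1 most closely followed that of astrocytes and Bergmann glia, the radial astrocytes of the cerebellar cortex. Pearson's r with the score of 9 markers was 0.81 (permutation p = 1e-05, adjusted p = 0.00045). Here rho was 0.75 (permutation p = 0.00011, adjusted p = 0.00495). The value of r was 0.66 without the pair of animals farthest from the median (adjusted p = 0.0553). It was 0.72 without BDL replicate 2 (adjusted p = 0.00945), 0.85 within BDL (adjusted p = 0.0823) and 0.78 within SHAM (adjusted p = 0.0918). Of these astrocyte markers 3 were higher and 6 lower in BDL, 0 were called, and their summed level was between 3919 and 7110 CPM in BDL and between 5011 and 7800 CPM in SHAM. With this score in the fit, also chosen after seeing the data, the log2 fold change of ABCA1 was 0.01, against -0.03 without it. ABCA1 passed with the precursor score (r = 0.72, adjusted permutation p = 0.0154) and the Purkinje cell score (r = 0.61, adjusted permutation p = 0.0353) as well. Both rest on few animals: without the farthest pair r was 0.41 for precursors and 0.31 for Purkinje cells, and without BDL replicate 2 it was 0.49 and 0.47 (both adjusted p = 0.212). The same holds for APOD with the astrocyte score (r = 0.62, adjusted permutation p = 0.0358), where r was 0.29 without that pair and 0.45 without BDL replicate 2 (adjusted p = 0.252). By sex, r of ABCA1 with the astrocyte score was 0.86 in females and 0.68 in males. With the precursor score it was 0.87 and 0.14, and with the Purkinje cell score 0.56 and 0.78. For APOD with the astrocyte score it was 0.75 and 0.46. Differences between the sexes in these correlations were not tested.

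ABCG4 followed the marker score of granule neurons, the most numerous cells of the cerebellum. Pearson's r with the score of 8 granule neuron markers was 0.78 (permutation p = 4e-05, adjusted p = 0.00135). Here rho was 0.63 (permutation p = 0.00209) and did not pass after adjustment (adjusted p = 0.0564). The value of r was 0.81 without BDL replicate 2, 0.64 within BDL (adjusted p = 0.512) and 0.85 within SHAM (adjusted p = 0.0175). It was 0.54 in females and 0.91 in males, a difference that was not tested. Without the pair of animals farthest from the median it was 0.63 (adjusted p = 0.0650). ABCG4 ran against the mural cell score, which stands for pericytes and smooth muscle (r = -0.65, permutation p = 0.00076, adjusted p = 0.0171). For this pair rho was -0.69 (permutation p = 0.00054, adjusted p = 0.0182). Without the farthest pair r was -0.64 (adjusted p = 0.0559), and without BDL replicate 2 it was -0.70. In females it was -0.58 and in males -0.69. Of the granule neuron markers 2 were higher and 6 lower in BDL with 0 called. With their score in the fit, also chosen after seeing the data, the log2 fold change of ABCG4 was -0.02, against -0.06 without it.

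**Figure D4:**
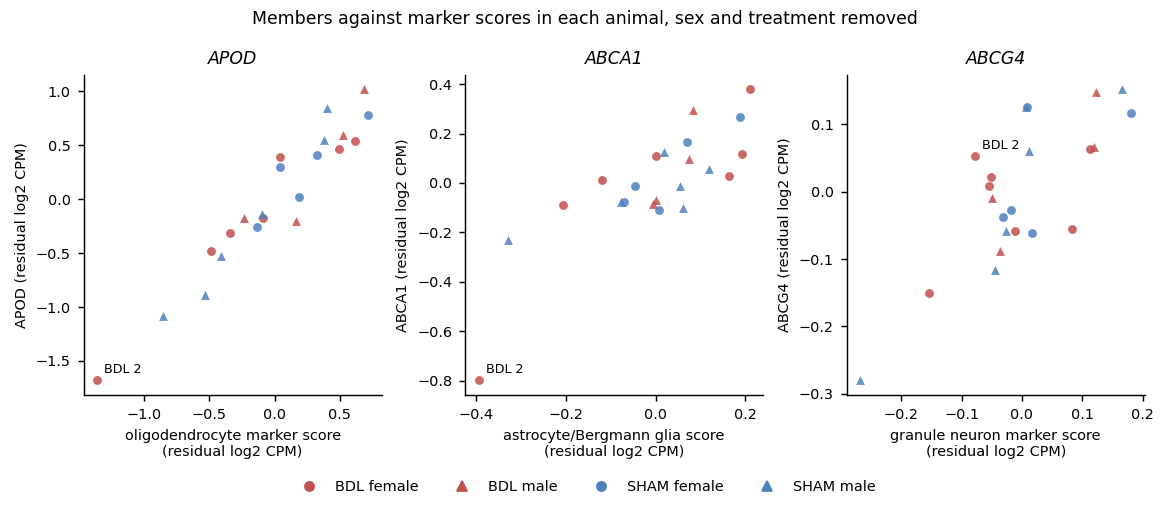
Residual log2 CPM of APOD, ABCA1 and ABCG4 against a marker score in each of 22 animals, with sex and treatment removed (BDL red, SHAM blue, circles female, triangles male). The points run from lower left to upper right in each panel, with r of 0.96, 0.81 and 0.78, and BDL replicate 2 is the lowest animal in the first and the second panel.

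APOE, NR1H2, NR1H3, ABCG1, MYLIP and SMPDL3A had 0 relations with a marker score past the threshold over all 22 animals. Within SHAM, SMPDL3A passed with the meningeal score (r = 0.79, permutation p = 0.00115, adjusted p = 0.0310), where r was 0.16 within BDL (permutation p = 0.639) and the difference between the groups was not tested. APOE, although a gene of astrocytes, had an r of -0.22 with the astrocyte score (permutation p = 0.317) and of 0.38 with the microglia score (permutation p = 0.0783). MYLIP had an r of 0.51 with the microglia score (permutation p = 0.0159, adjusted p = 0.144), and NR1H2 one of 0.49 with the blood cell score (permutation p = 0.0175).

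The genes most like each member across the table were named by Pearson's r of residual log2 CPM over the 22 animals, as a description. They were picked as the highest r among the 12317 tested genes with a symbol, members left out, so r is raised by the choice. For APOD they were MBP (r = 0.98), ELOVL7, a fatty acid elongase gene (0.97), and GJB1, an oligodendrocyte gap junction gene (0.97). MBP and GJB1 are also on the oligodendrocyte marker list. For ABCA1 they were MYO10 (0.91), PTPRZ1 (0.89), which is on the precursor list, and PREX2 (0.88). For ABCG4 they included GRIN2C, an NMDA receptor subunit gene of mature granule neurons, and KIAA1549L (each 0.88). The likeness was lower for the rest: ABCG1 had KANSL1 (0.86), RBFOX2 (0.84) and MTUS2 (0.83), and APOE had UBXN6 (0.83), NDUFC2 (0.80) and TSEN34 (0.76). MYLIP had CAPNS1 (0.87), KCNK13 (0.82) and INHBA (0.76), where KCNK13 and INHBA had medians of only 0.728 and 0.67 CPM. NR1H2 had FZD9 (0.81), TMEM109 (0.78) and LRRC73 (0.76), NR1H3 had PDPN (0.83), LYSMD2 (0.80) and SMYD4 (0.79), and SMPDL3A had ATPSCKMT (0.72) and EFHC2 (0.72) among its closest. The spread of NR1H3 was no larger than counting error, so little can be read from its r values.

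The members differed from each other in their spread between animals. The biological coefficient of variation, edgeR's model estimate of the spread beyond counting error, which borrows from other genes, was 44.6% for APOD, above 99.8% of the 1738 genes with a mean CPM within 2-fold of its own, whose median was 9.62%. ABCA1 stood at 15%, above 86.1% of genes of like level. NR1H2 at 8.61% and ABCG4 at 8.60% were among the steadier genes, above 30.6% and 31.3% of genes of like level. For NR1H3 the model gave 14.3%, above 0.757% of genes of like level, although its observed spread was no larger than counting error, so this value is not a measured spread. From the lowest to the highest animal, CPM differed by 6.93-fold for APOD, 2.27-fold for ABCA1, 1.80-fold for APOE and 1.37-fold for ABCG4. Without BDL replicate 2 it was 4.8-fold for APOD and 1.42-fold for ABCA1, and the other 7 members kept the same value.

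**Figure D5:**
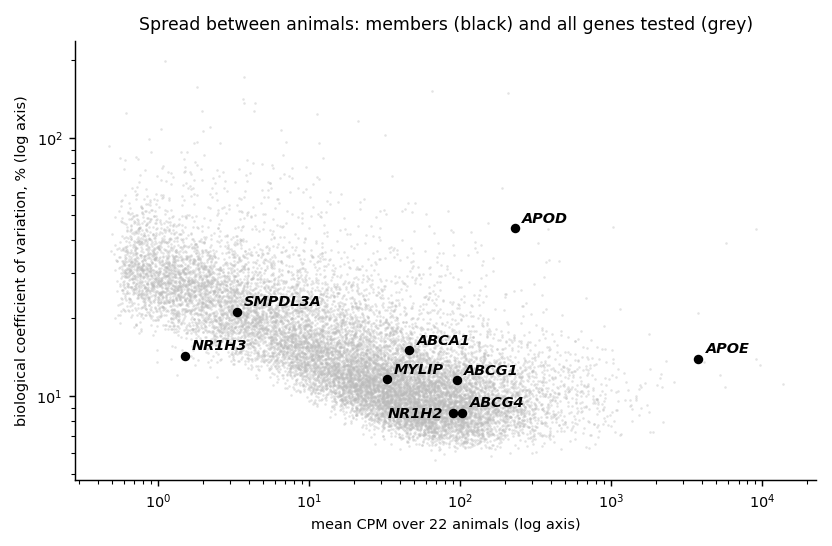
Biological coefficient of variation as estimated by edgeR, in percent, against mean CPM over 22 animals, both on log axes, for 9 members (black, named) and all 14994 genes tested (grey). APOD at 44.6% lies above nearly all genes of like level, and NR1H3 at 14.3% lies at the lower edge of the cloud.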

How the data were processed

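The deposited files hold raw, whole-number read counts for Ensembl gene identifiers, with a table for each of 22 animals. The submitters' processing notes name Trim Galore, HISAT2, HTSeq and DESeq2 and the build Sscrofa11.1. Neither versions nor a strand setting is given in the sources used here. The 5 closing lines of each table, which belong to no gene (29.9% to 34.6% of reads), were left out. The counting error shrinks with depth, so values of NR1H3 and SMPDL3A are the least precise.

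Genes were kept by filterByExpr (minimum count 10, minimum total 15; 14994 genes), scaled by TMM and tested with edgeR 4.0.16 in R 4.3.3, by a robust quasi-likelihood fit on sex and treatment, with Benjamini-Hochberg adjustment over all genes. A model of the 4 groups of sex and treatment gave the interaction and both within-sex effects, and body weight was added for its own test. Alternatives were DESeq2 1.42.0, limma-voom 3.58.1, another scaling, no filter, other covariates and leaving out each animal. Log2 CPM used a prior count of 2, and correlations 100000 permutations. Positions were taken by symbol from the RefSeq table of Sscrofa11.1. Exon lengths were not used here, so CPM is not compared between genes.

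Members and lists were chosen with earlier results of these data known. All members are named, with listed genes fixed by name, those with the 2 smallest p of each list and the 3 genes most like each member, except that some of these are not reported here. Replicates are animals numbered in order of deposition. Litters were not used here.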

Additional observations from a re-analysis of the deposited data

Results flagged for a closer look

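In 36 sets of 4 to 10 animals of 1 sex and treatment, 1 value lay far from the rest: SHAM replicate 1 had 127 CPM of ABCG1, where the next of the 6 SHAM males had 97.5 CPM. About 1 in 20 such sets is expected to hold one by chance. The same animal had the lowest SHAM values of NR1H2 (75.5 CPM), NR1H3 (0.999 CPM), APOE (2633 CPM) and APOD (96.7 CPM). It also had the fewest gene counts of all 22 libraries (14811464) and the lowest SHAM marker scores of oligodendrocytes (6.97), microglia (3.43), meningeal cells (4.41), choroid plexus (2.26), mural cells (2.88) and blood cells (0.56). Their part in its ABCG1 value was not tested.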

How the results depend on the processing

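In none of the alternatives run for the 4 comparisons did a member pass. BDL against SHAM called 1 gene under DESeq2 and 0 elsewhere. Female against male called 31 genes without the count filter, 23 under DESeq2 and between 7 and 26 when 1 animal was left out, the 26 without BDL replicate 2. Body weight called 8 genes under DESeq2 and between 0 and 9 when 1 animal was left out, the 9 without SHAM replicate 1. Of the 135 correlations, 8 passed in all animals, 3 without the pair of animals farthest from the median (2 of them among the 8), 1 within BDL (among the 8), 5 within SHAM (3 among the 8) and 6 without BDL replicate 2 (5 among the 8). These sets hold fewer animals. ABCG4 with the meningeal score passed without the farthest pair (r = -0.70) and without BDL replicate 2 (-0.67), against -0.56 in all animals (adjusted p = 0.0937). For this pair r was -0.13 in females and -0.90 in males, and -0.44 within BDL and -0.72 within SHAM. These differences were not tested.

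Some log2 fold changes changed sign. Not all of them were near 0 in the main fit, where APOD was at 0.18 for BDL against SHAM and -0.14 female against male. For BDL against SHAM, ABCG1 was at -0.01 with animal number as a covariate and -0.0023 with no sex term, ABCA1 at 0.01 with the astrocyte score and APOD at -0.04 with the oligodendrocyte score. With 1 animal left out the range was -0.08 to 0.02 for ABCA1, -0.01 to 0.05 for ABCG1 and -0.03 to 0.01 for NR1H2. Without a change of sign it was -0.09 to -0.04 for ABCG4, 0.02 (without SHAM replicate 1) to 0.09 for APOE, 0.03 to 0.29 for APOD, -0.07 to -0.01 (without SHAM replicate 2) for MYLIP, 0.09 (without BDL replicate 1) to 0.22 for SMPDL3A and -0.12 to -0.03 (without SHAM replicate 9) for NR1H3. Female against male, MYLIP was at -0.0010 and NR1H3 at -0.01 without the filter and NR1H3 at -0.0035 under DESeq2. The ranges were -0.08 to 0.01 for ABCA1, -0.23 to 0.02 for APOD, -0.03 to 0.04 for MYLIP, -0.08 to 0.06 for SMPDL3A and -0.05 to 0.06 for NR1H3. The interaction of APOE was 0.02 with animal number, and ranges were -0.11 to 0.03 for ABCG1, -0.12 to 0.05 for APOE and -0.05 to 0.05 for NR1H2. For body weight they were -0.04 to 0.04 for APOE, -0.08 to 0.08 for APOD, -0.02 to 0.01 for NR1H2 and -0.0011 to 0.06 for NR1H3. The cause was not tested.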

Other observations

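ABCG1 and APOE varied against each other within SHAM but not detectably within BDL. Pearson's r of residual log2 CPM was 0.17 over 11 BDL animals (permutation p = 0.616) and -0.92 over 11 SHAM animals (permutation p = 0.00012, adjusted p = 0.0081 over 135 relations). Over all 22 animals r was -0.45 (permutation p = 0.0378, adjusted p = 0.191). SHAM replicate 1 had both the highest ABCG1 and the lowest APOE value, and without it r over 10 SHAM animals was -0.81 (permutation p = 0.00319), an alternative chosen after seeing the data. With both groups together, r was -0.14 in females and -0.73 in males, and SHAM held 6 males where BDL held 4. Neither the difference between the groups nor that between the sexes in this correlation was tested.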
